A study of Sus scrofa with 6 samples.

Results

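Leukocyte surface and lineage markers were examined in scrapings of the pig uterus. The list held 43 genes that mark T cells and natural killer (NK) cells, B cells, macrophages and granulocytes, or leukocytes in general. The array annotation named 31 of them among 6765 named genes, through 48 of the 23999 probe sets tested. Each gene was read from the probe set with the highest mean log2 signal over all 6 arrays. The other 12 genes (CD5, CD6, CD28, ZAP70, GZMA, GZMB, NKG7, CD79A, MS4A1, CD68, CSF1R and ITGAX) were not named by that annotation and were not analysed here.

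The tested tissue was the horn that held blastocysts (embryo horns, n = 3), and its control was the opposite horn, which held oocytes (oocyte horns, n = 3). Both horns came from the same weaned Landrace x Large White crossbred sow, collected on day 6 after laparoscopic surgery in which 1 oviduct received spermatozoa and the opposite oviduct received sperm-free diluent. The comparison asks whether embryos changed the local expression of these genes within an animal. Effects of spermatozoa or seminal material and effects of embryos cannot be told apart in this design, and both horns shared the circulation and hormones of 1 sow. The sample was the mucosal lining scraped off with a glass slide near the utero-tubal junction, so any leukocytes were a part of a mixed tissue.

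The endometrium holds resident leukocytes within and below its epithelium. T and NK cells recognise target cells through surface receptors and kill them with granule proteins, macrophages and granulocytes bind antibody and microbial products through Fc and pattern receptors, and B cells carry the antigen receptor. In pigs the conceptus attaches to the uterine surface without invading it, and blastocysts at this stage are still free in the lumen.

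Of 8 defining epithelial genes, 7 lay above the median of the array on all 6 arrays and MUC1 below it on all 6. The summed signal of the 8, with EPCAM and KRT8 among them, ran between 7689.8 and 10476.1 in embryo horns and between 7914.4 and 10232.4 in oocyte horns. The 31 leukocyte markers summed to between 2107.3 and 2421.3 in embryo horns and between 1994.0 and 2262.6 in oocyte horns. Without GPR183, whose probe set made up a large part of these sums, they ran between 1178.0 and 1406.1 in embryo horns and between 948.5 and 1461.8 in oocyte horns. No leukocyte marker had a signal of 0. Signals are in the arbitrary units of the array software, and the median signal of an array lay between 30.6 and 35.8. The markers FCER1G, FCGR3A, TYROBP, LAPTM5, CORO1A, GPR183 and CXCR4, 7 in all, lay above the median of the array on all 6 arrays, while 14 lay below it on all 6. CD4 and CCR7 stayed under a signal of 10 on all arrays, and a further 7 (CD2, CD3G, PRF1, KLRK1, CD79B, ITGAM and CD14) did so on some. Of all signals on an array, 25.4% to 29.0% were under 10.

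No leukocyte marker passed the test between embryo and oocyte horns. In the limma fit of the 3 embryo arrays against the 3 oocyte arrays, 0 of 31 markers passed an adjusted p of 0.05 (0.0% of all probe sets passed), the smallest adjusted p was 1.00, and 0 had an unadjusted p below 0.05 (2.88% of all probe sets did). When the sow was a block, 0 of 31 passed the adjusted threshold (0.0% of all probe sets), the smallest adjusted p was 0.537, and 1 marker, ITGB2, had an unadjusted p below 0.05 (8.7% of all probe sets). Fold changes were between -0.87 and 1.14 on the log2 scale, embryos minus oocytes, with a median of 0.16 beside 0.01 for all probe sets. The fold change was above 0 in 22 markers and below 0 in 9, where 50.8% of all probe sets were above 0 and 49.2% below. Every fold change below is on this log2 scale from the limma fit without the block, with its SE and 95% interval where these are given. The number of arrays limits the precision, and leaving out 1 array moved the median of the 31 markers to between 0.018 (without the oocyte horn of sow 1) and 0.37 (without the oocyte horn of sow 2). In a bulk sample, fewer cells of a type and less RNA per cell cannot be told apart.

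**Figure D1:**
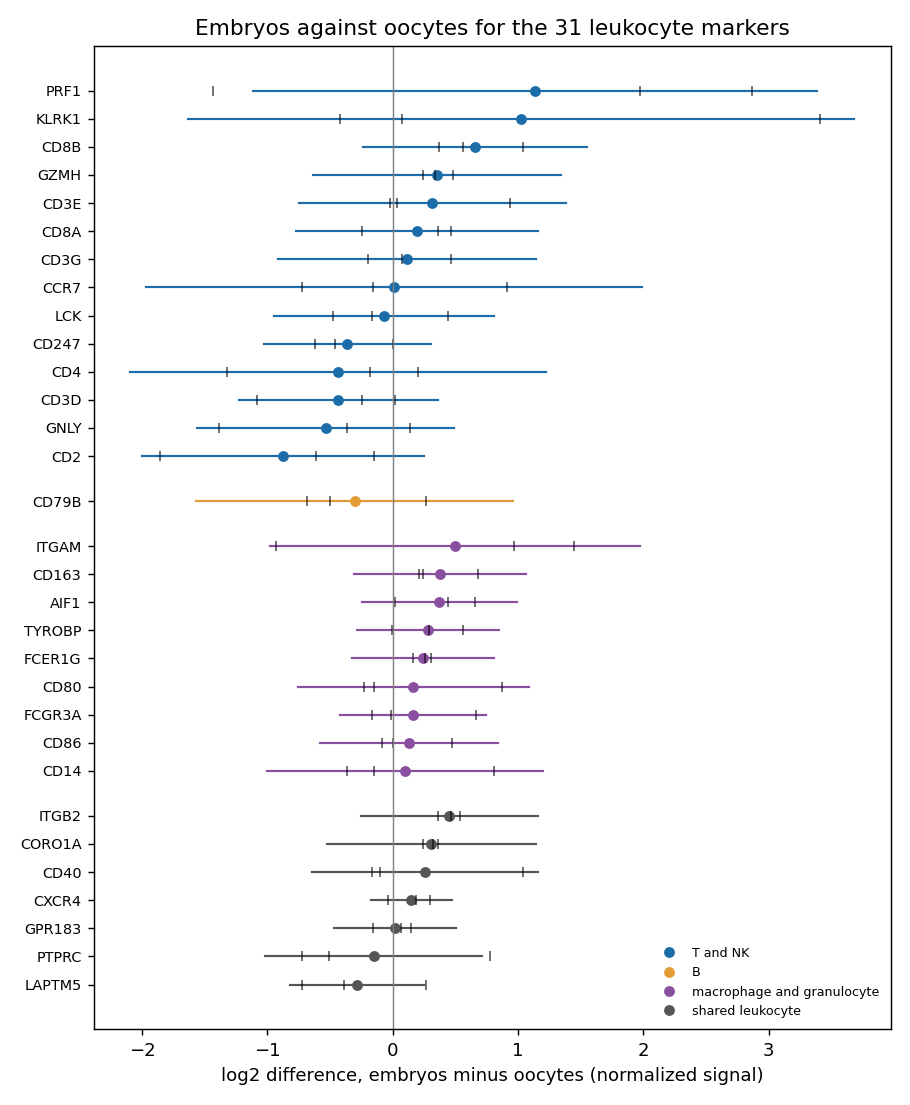
Log2 difference in normalized signal, embryos minus oocytes, for the 31 leukocyte markers (horizontal axis), grouped by cell lineage. Dots are the fitted differences with 95% confidence intervals from limma, and black ticks are the 3 within-sow differences. Every interval crosses 0, and the 9 macrophage and granulocyte markers all have fitted differences above 0.

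Between the paired horns, 7 markers were higher with embryos in all 3 sows (14.9% of all probe sets were) and 2 were lower in all 3 (14.8% of all probe sets were). CD8B, GZMH, CD163, AIF1, FCER1G, ITGB2 and CORO1A made up the higher ones, and CD2 and CD247 the lower ones. The normalized values of the groups did not overlap for 1 marker, CD247, which was lower with embryos (3.98% of all probe sets did not overlap in that direction), and for 0 in the higher direction (4.03% of all probe sets). Of these 4 counts, the 7 of 31 was the only 1 above the share of all probe sets. The median difference over the 31 markers was 0.24 in sow 1, -0.08 in sow 2 and 0.21 in sow 3, so the sows did not share a direction.

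The T and NK cell markers, 14 of 21 named on the array, were split, with 8 above 0 and 6 below 0 and a median fold change of 0.06. That median was -0.26 without the oocyte horn of sow 1 and 0.32 without the oocyte horn of sow 2. Their summed signals were 209.5, 335.2 and 249.2 in the embryo horns of sows 1, 2 and 3, and 216.7, 343.6 and 230.1 in the oocyte horns. Those sums were closely alike in the horns of each sow, and sow 2 was the highest in both.

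CD8A encodes a chain of the CD8 co-receptor, which is carried by cytotoxic T cells and NK cells, among other cells. Its signals were 37.9, 68.8 and 25.7 in embryo horns of sows 1, 2 and 3, against 28.7, 51.2 and 29.9 in oocyte horns. The groups overlapped, and both horns of sow 2 were above the other 4 arrays. The fold change was 0.20 (SE 0.42, 95% interval -0.77 to 1.16, limma adjusted p = 1.00), smaller than the spread between sows. CD8B, the partner chain found on cytotoxic T cells, was brighter in the embryo horn of every sow, with 15.9, 24.2 and 25.0 against 11.8, 12.3 and 16.3 in oocyte horns. Only the embryo horn of sow 1 lay within the oocyte range, and the fold change of 0.66 (SE 0.39, 95% interval -0.24 to 1.55) did not pass. CD8B lay below the array median on all 6 arrays and is described here after its values were seen.

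GZMH, a granzyme of cytotoxic granules, had 23.9, 51.3 and 26.9 in embryo horns, against 19.6, 38.0 and 20.8 in oocyte horns. The embryo horn was higher within each sow, yet the groups overlapped, with sow 2 high in both horns (fold change 0.35, SE 0.43, 95% interval -0.64 to 1.34). GNLY, the granule peptide known in pigs as NK-lysin, went the other way in 2 of the 3 sows. It had 12, 30.5 and 30.2 in embryo horns and 30.3, 40.6 and 26.7 in oocyte horns, with a fold change of -0.54 (SE 0.45, 95% interval -1.56 to 0.49). The low embryo horn of sow 1 carried most of that difference. PRF1, the pore-forming perforin, was under 10 on 5 of 6 arrays (fold change 1.14, SE 0.99). Its other probe set, under 10 on every array, had a fold change of -0.91 (SE 0.90). The 3 granule proteins thus had no common direction.

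The T cell receptor complex also lacked a common direction. CD3E, an invariant signalling chain of the complex, had 16.8, 32.1 and 27.6 in embryo horns, against 15.8, 33.8 and 14.0 in oocyte horns (fold change 0.32, SE 0.47, 95% interval -0.75 to 1.38). Horns of sows 1 and 2 were nearly equal, and the fold change came from sow 3. CD3D, another chain, had 24.0, 19.5 and 19.8 in embryo horns, against 22.8, 42.7 and 22.8 in oocyte horns (fold change -0.43, SE 0.35, 95% interval -1.23 to 0.36). Here the oocyte horn of sow 2 stood above the other 5 arrays. CD3G lies beside CD3D on the genome with no protein-coding gene between them, as the RefSeq gene table of Sscrofa11.1 lists them (0 genes), and had a fold change of 0.12.

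CD247, the zeta chain that passes the receptor's signal inward, had 20.4, 17.6 and 21.3 in embryo horns and 30.1, 25.2 and 20.7 in oocyte horns. Sows 1 and 2 were lower with embryos, while the horns of sow 3 were level (a log2 difference of -0.001 after normalization). The groups thus overlapped slightly in the deposited signals and separated only narrowly after normalization (fold change -0.36, SE 0.29, 95% interval -1.03 to 0.31). A dimmer CD247 probe set had 11.9, 9.3 and 7.1 in embryo horns, against 15.2, 16.1 and 15.7 in oocyte horns. Its groups were apart in the same direction, with a fold change of -0.78 (SE 0.40, 95% interval -1.68 to 0.12, limma adjusted p = 1.00). The other 2 CD247 probe sets were under 10 on every array and ran in opposite directions (-0.75 and 0.71). CD2, an adhesion receptor of T and NK cells, was the lowest of all markers relative to the oocyte horns, at -0.87 (SE 0.49, 95% interval -2.00 to 0.25). Its signals were 7.5, 12.7 and 9.2 in embryo horns, against 26.1, 20.4 and 9.7 in oocyte horns, so the gap was wide in sow 1 and nearly closed in sow 3.

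The other T and NK cell markers were LCK (the kinase bound to CD4 and CD8), CD4 (the co-receptor of helper T cells), KLRK1 (the NKG2D receptor) and CCR7 (the homing receptor for lymph nodes). LCK, CD4 and CCR7 had fold changes of -0.07, -0.43 and 0.01. KLRK1 stood at 1.02 (SE 1.17), which rested on sow 1 alone, with a signal of 12.2 in the embryo horn and 1.1 in the oocyte horn. Its horns in sow 2 were equal, at 25.3 with embryos and 25.2 with oocytes. Among 14 further genes of T cell receptor signalling, 8 were named on the array. None of these 8 passed an adjusted p of 0.05 in limma or had an unadjusted p below 0.05 without the block (0 of 8), and their median fold change was 0.08. With the sow as a block, 1 of the 8 had an unadjusted p below 0.05 in limma (8.7% of all probe sets did). It was VAV1, an exchange factor downstream of the receptor (fold change 0.33, SE 0.14 and limma adjusted p = 0.564 with the block).

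B cells were represented by CD79B alone, the signalling chain of the B cell receptor. It had 5.8, 10.3 and 9.5 in embryo horns and 7.9, 17.5 and 7.4 in oocyte horns. The signals were dim, the groups overlapped, and the fold change was -0.30 (SE 0.56, 95% interval -1.57 to 0.96). Of 10 further B cell genes 4 were named, with a median fold change of 0.03 and 0 past the adjusted threshold (0 with an unadjusted p under 0.05 in either fit). Among those 4, TNFRSF17, a receptor of plasma cells, was bright in sow 2 only, at 40.8 with embryos and 42.5 with oocytes, and lay between 1.6 and 3.4 elsewhere. JCHAIN, which joins the units of secreted IgA and IgM, was highest in sow 1, at 443.4 with embryos and 293.6 with oocytes.

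The macrophage and granulocyte markers, 9 of 12 named on the array, had fold changes between 0.10 and 0.49 with a median of 0.24, and all 9 were above 0 (50.8% of all probe sets were). With the probe sets of each gene averaged, 8 were above 0. None passed the limma test in either fit, and 0 had an unadjusted p below 0.05. Their summed signals were 473.3, 486.7 and 428.1 in embryo horns of sows 1, 2 and 3, against 423.8, 486.4 and 301.2 in oocyte horns. The horns of sow 2 were equal in sum, and the low oocyte horn of sow 3 made the widest gap. FCGR3A, which NK cells also carry, was the largest part of each sum, at 185.1 with embryos and 116.9 with oocytes in sow 3. No sum without it was taken. Within sows the median difference was 0.24 in sow 1, -0.08 in sow 2 and 0.48 in sow 3.

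**Figure D2:**
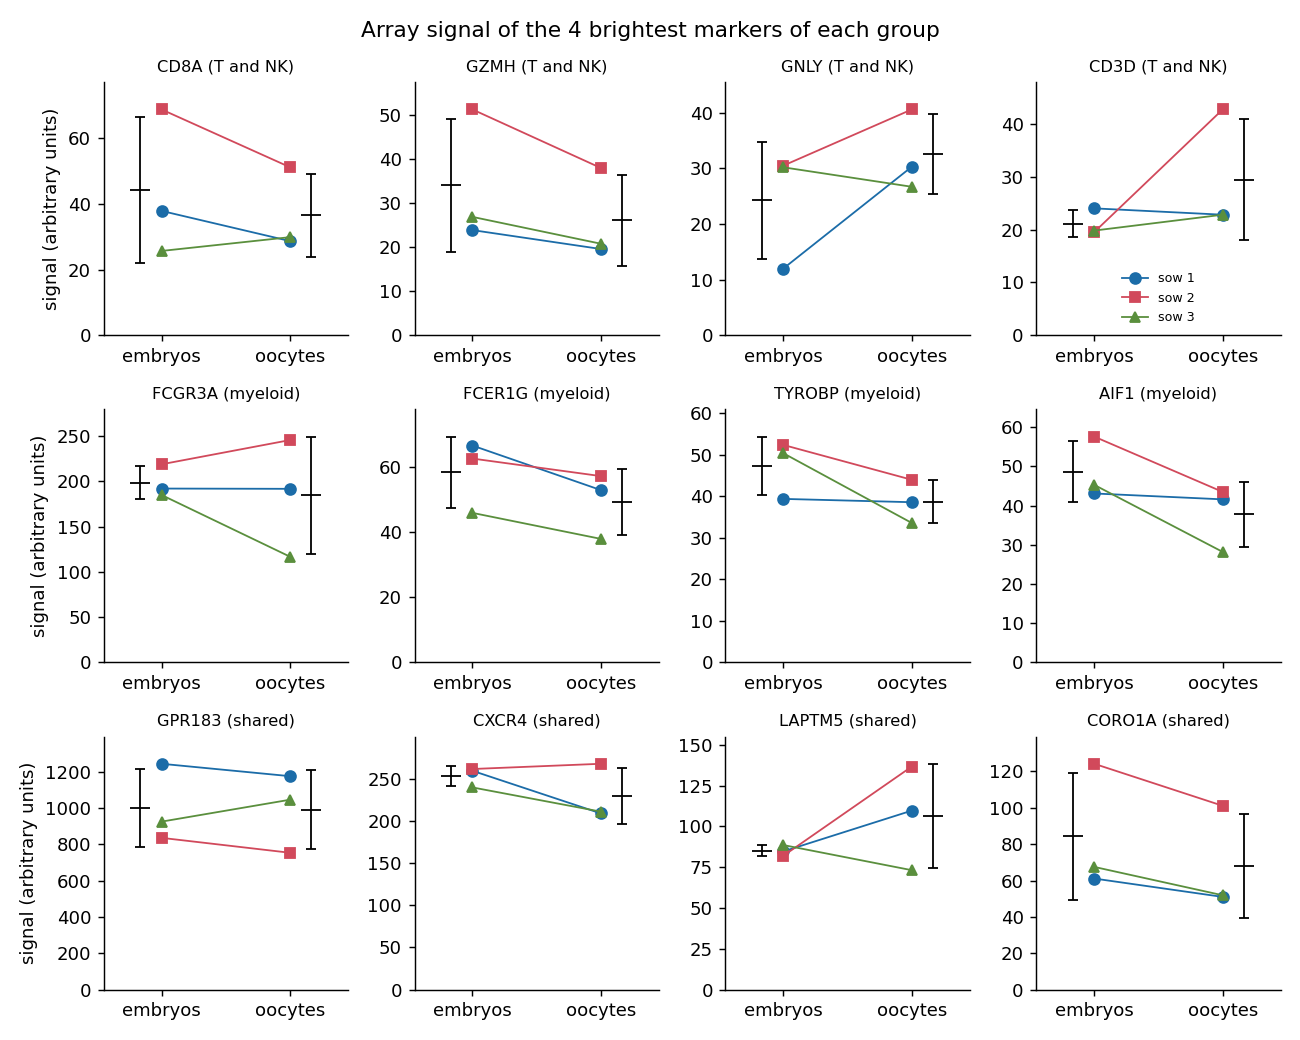
Deposited signal (vertical axes, arbitrary units, starting at 0) of the 4 brightest markers of the T and NK group, the macrophage and granulocyte group (titled myeloid) and the shared group, in embryo horns (left) and oocyte horns (right). Lines join the horns of a sow and black marks give the group mean with its SD (n = 3). The horns of sow 2 lie above the other arrays for CD8A, GZMH, GNLY, FCGR3A, CXCR4 and CORO1A, and the groups overlap in all 12 panels.

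FCGR3A, the low-affinity IgG receptor CD16 of NK cells, macrophages and neutrophils, had 192.2, 219.0 and 185.1 in embryo horns, against 191.9, 245.8 and 116.9 in oocyte horns. The embryo horns lay close together, and the fold change of 0.16 (SE 0.26, 95% interval -0.42 to 0.74) came from the oocyte horn of sow 3. FCER1G, the signalling chain that Fc receptors share, had 66.7, 62.7 and 46.0 with embryos and 53.0, 57.3 and 38.0 with oocytes. It was higher with embryos in each sow by a similar step (0.30, 0.16 and 0.25 on the log2 scale), and sow 3 was the lowest in both horns (fold change 0.24, SE 0.25, 95% interval -0.33 to 0.81). TYROBP, the adaptor DAP12 of myeloid and NK receptors, had 39.4, 52.4 and 50.4 in embryo horns, against 38.6, 44.0 and 33.6 in oocyte horns. Sow 1 showed no gap and sow 3 the widest (fold change 0.28, SE 0.25, 95% interval -0.28 to 0.85).

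AIF1, an actin-binding protein of macrophages known as IBA1, had 43.1, 57.6 and 45.3 with embryos and 41.6, 43.5 and 28.2 with oocytes (fold change 0.37, SE 0.27, 95% interval -0.24 to 0.99). The embryo horn of sow 1 was just below the oocyte horn of sow 2, so the groups overlapped by that 1 array. CD163, the haemoglobin scavenger receptor of macrophages, had 36.8, 36.4 and 24.0 in embryo horns, against 30.1, 23.5 and 20.2 in oocyte horns. Each sow was higher with embryos, with the widest step in sow 2, and the groups overlapped through the low embryo horn of sow 3 (fold change 0.38, SE 0.30, 95% interval -0.31 to 1.07). CD86, a co-stimulatory ligand on antigen-presenting cells, had 44.2, 23.2 and 38.1 with embryos and 42.8, 25.4 and 26.8 with oocytes (fold change 0.13, SE 0.31, 95% interval -0.58 to 0.84). It followed the sow, with sow 1 highest and sow 2 lowest in both horns.

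CD80, the related co-stimulatory ligand, CD14, the lipopolysaccharide co-receptor, and ITGAM, the alpha chain CD11b, were dimmer, with signals between 2.9 and 23.2. Their fold changes of 0.16, 0.10 and 0.49 had standard errors of 0.40, 0.48 and 0.65. In each of these 3 markers, sow 1 was higher with embryos and sow 2 lower. Dimmer probe sets of ITGAM, CD14 and CD80, under 10 on every array, had fold changes of 1.53, 0.54 and -1.17. For that of ITGAM the groups were apart, higher with embryos. Of 17 further genes of myeloid signalling and adhesion 9 were named on the array, 7 above 0 and 2 below 0, with a median fold change of 0.10. None of the 9 passed in limma (0 with an unadjusted p under 0.05 in either fit). NCF1, a subunit of the phagocyte NADPH oxidase, varied far more between sows than between horns, with 305.0, 814.2 and 276.2 with embryos, against 394.7, 622.6 and 181.6 with oocytes.

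The markers shared by several leukocyte lineages, 7 of 7 named, had 5 fold changes above 0 and 2 below 0, with a median of 0.15. ITGB2, the common beta chain CD18 that pairs with ITGAM and other integrin alpha chains, had 41.2, 62.2 and 50.0 in embryo horns, against 27.8, 49.8 and 35.6 in oocyte horns. Every sow was higher with embryos by a like step (0.54, 0.36 and 0.46 on the log2 scale), but sow 2 was high in both horns and the groups overlapped. The fold change of 0.45 had an SE of 0.31 without the block and 0.19 with it. With the block its 95% interval was 0.03 to 0.87 and its limma adjusted p = 0.537. CORO1A, an actin-binding coronin of leukocytes, had the same shape, with 61.1, 124.2 and 67.5 with embryos and 51.0, 101.1 and 51.9 with oocytes. Its fold change was 0.31 (SE 0.37, and 0.14 with the block, limma adjusted p = 0.576 with the block), a step much smaller than the gap between sow 2 and the others.

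PTPRC, the phosphatase CD45 found on nearly all nucleated leukocytes, had 19.4, 24.8 and 29.2 in embryo horns, against 30.9, 36.5 and 16.6 in oocyte horns. It was lower with embryos in sows 1 and 2 and higher in sow 3 (fold change -0.15, SE 0.38, 95% interval -1.02 to 0.72). LAPTM5, a lysosomal membrane protein of blood cells, took the same course, with 84.7, 82.0 and 88.6 with embryos and 109.7, 136.7 and 73.2 with oocytes. The embryo horns were nearly equal, while the oocyte horns spread to both sides of them (fold change -0.28, SE 0.24, 95% interval -0.82 to 0.25). The general marker CD45 thus did not follow CD18, and neither passed the test. CXCR4, the receptor of the chemokine CXCL12, had 259.2, 261.3 and 239.5 with embryos, against 208.7, 267.5 and 210.8 with oocytes (fold change 0.15, SE 0.14, 95% interval -0.17 to 0.47). That interval was the narrowest of the 31. CD40, a co-stimulatory receptor of antigen-presenting cells, had a fold change of 0.26 (SE 0.39). In this brightest probe set it came from the dim oocyte horn of sow 1. The other CD40 probe sets had fold changes of 0.17 (SE 0.44) and 0.54 (SE 0.42). In the former, sow 1 was lower with embryos, and in the latter every sow was higher.

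GPR183, the oxysterol receptor that guides B cells, T cells and dendritic cells within lymphoid tissue, was far above the array median on every array. Its brighter probe set had 1243.3, 835.6 and 924.8 in embryo horns, against 1175.0, 753.5 and 1045.5 in oocyte horns. The groups overlapped throughout (fold change 0.02, SE 0.21, 95% interval -0.47 to 0.51), and sow 1 was highest and sow 2 lowest in both horns. Its other probe set had 417.1, 440.5 and 507.4 with embryos and 530.6, 620.0 and 653.6 with oocytes. All embryo horns were below all oocyte horns there, and the fold change was -0.40 (SE 0.13, 95% interval -0.69 to -0.12, limma adjusted p = 1.00, and adjusted p = 0.221 with the block). This second probe set belongs to the transcripts that the study selected on these same arrays, so its direction is not independent evidence. The brighter probe set of this gene was thus close to 0 and the other below it, and which transcript or strand each reads was not tested.

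**Figure D3:**
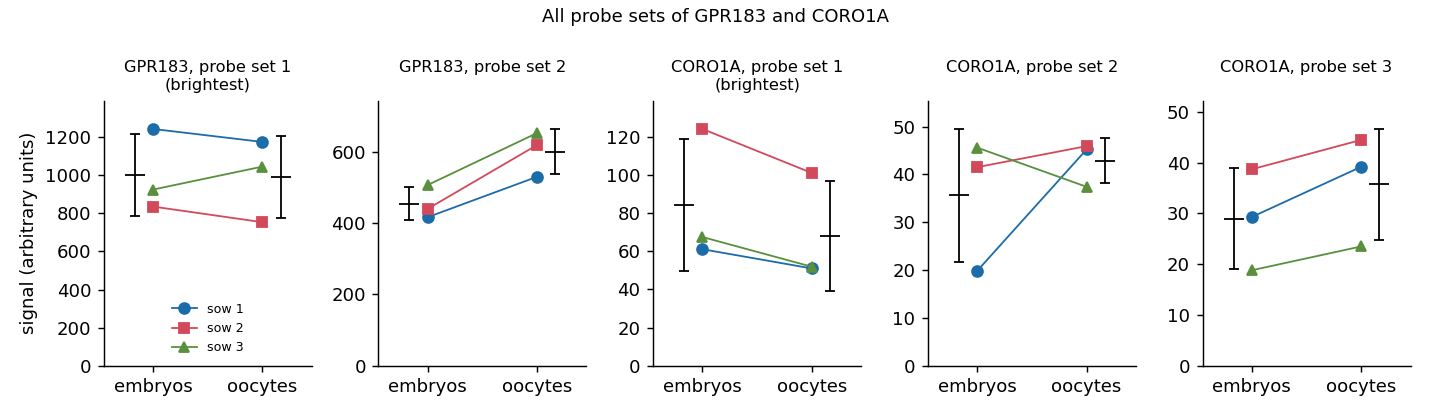
Deposited signal (vertical axes, arbitrary units, starting at 0) of the 2 probe sets of GPR183 and the 3 of CORO1A, in embryo horns (left) and oocyte horns (right), with lines joining the horns of a sow and black marks for the mean and SD (n = 3). The second GPR183 probe set is lower with embryos in all 3 sows, while the brightest is not. The brightest CORO1A probe set is higher with embryos in all 3 sows, while its others have fold changes of -0.36 and -0.32.

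Probe sets of a gene often differed in sign. For 13 markers the array held several probe sets, 17 beside the brightest, and 8 of these had the sign of the brightest and 9 the opposite sign. Most were dim, since 13 of the 17 fell under 10 on at least 1 array and 8 on all arrays. Among the 4 that stayed above 10 throughout, both CORO1A probe sets and that of GPR183 had the opposite sign, the brightest of GPR183 being close to 0. The first CORO1A probe set read 19.8, 41.5 and 45.6 in embryo horns, against 45.2, 45.9 and 37.4 in oocyte horns (fold change -0.36, SE 0.36). The next read 29.3, 38.7 and 18.8 with embryos, against 39.2, 44.5 and 23.5 with oocytes (fold change -0.32, SE 0.38). In normalized values both horns of sow 2 were above the other 4 arrays in the brightest and in the last of these, but not in the first.

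Some leukocyte markers passed the test between sows, where 0 passed between horns. In normalized values, both horns of sow 2 were above the other 4 arrays for 11 of 31 markers (11.6% of all probe sets), namely CD3E, CD3G, CD8A, LCK, GZMH, GNLY, CD79B, CD14, FCGR3A, ITGB2 and CORO1A. Sow 1 was highest in this sense for 2 markers, CD86 and GPR183 (13.9% of all probe sets), and sow 3 for 0 (8.73% of all probe sets). The median deviation of the 31 markers from their 6-array means was 0.30 in the embryo horn of sow 2 and 0.39 in its oocyte horn. In sow 1 it was -0.14 with embryos and -0.32 with oocytes, and in sow 3 it was 0.02 with embryos and -0.24 with oocytes. In the limma F test of the sow, 9 of 31 had an unadjusted p below 0.05 (25.0% of all probe sets) and 3, CD8A, CORO1A and GPR183, an adjusted p under 0.05 (11.3% of all probe sets). The limma adjusted p was 0.0410 for CD8A, 0.00512 for CORO1A and 0.00536 for GPR183. Neither share of markers passing was far from that of all probe sets, and the count that stood apart was that of sow 2 as the highest sow.

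Of the T and NK markers, 6 of 14 were highest in sow 2, with median deviations of 0.45 and 0.53 in its embryo and oocyte horns. Of the macrophage and granulocyte markers, 2 of 9 were highest in sow 2, and 3 of 9, CD163, FCER1G and FCGR3A, were lowest in sow 3 (8.27% of all probe sets). The further myeloid signalling and adhesion genes had 4 of 9 highest in sow 2 (LYN, NCF1, ARHGDIB and PLEK), with median deviations of 0.41 and 0.30 in its embryo and oocyte horns. The difference between these lineages was not tested.

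**Figure D4:**
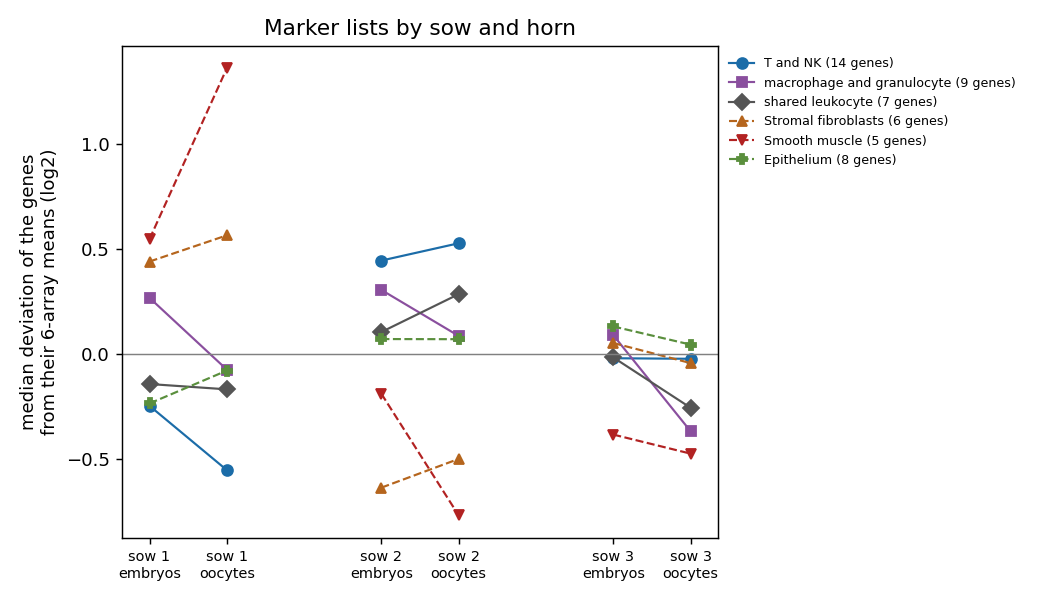
Median deviation of each marker list from the 6-array means of its genes (vertical axis, log2), by sow and horn, embryo horn left of oocyte horn. Solid lines are leukocyte lists and dashed lines are lists of other cell types. The T and NK list is highest in sow 2, where stromal markers are lowest, at -0.63 with embryos and -0.50 with oocytes.

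Markers of other tissue layers moved with the sow as well. The 6 stromal markers named of 8, among them DCN and VIM, summed to 6619.2, 3307.1 and 4939.2 in embryo horns of sows 1, 2 and 3, against 7089.1, 3394.0 and 4755.3 in oocyte horns, and 5 of the 6 were lowest in sow 2 (10.9% of all probe sets). The 5 smooth muscle markers of 6 summed to 1549.8, 681.7 and 1015.0 with embryos and 2273.0, 560.7 and 922.7 with oocytes, so sow 1 was again the highest. The 6 endothelial markers summed to between 222.4 and 339.5 with embryos and between 224.0 and 303.7 with oocytes. The ratio of 5' to 3' control probe sets for GAPDH, a sign of RNA quality, was 0.243, 0.130 and 0.199 with embryos, against 0.355, 0.200 and 0.226 with oocytes. For actin the ratio was lower on every array, at 0.149, 0.058 and 0.104 with embryos, against 0.219, 0.105 and 0.118 with oocytes. By either control, sow 2 had the lowest ratio within each group, and the embryo horn had the lower ratio within each sow. The part of tissue make-up and RNA quality in the differences between sows, and of RNA quality in those between horns, was not tested. With the mean log2 ratio of the GAPDH and actin controls as a covariate, the median fold change of the 31 markers was -0.14 in place of 0.16, and with both the sow as a block and this covariate it was 0.26.

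Neutrophil, mast and plasma cell genes were held apart from the listed markers. The 5 neutrophil genes of 7 were dim, with sums of 52.0, 69.5 and 49.9 in embryo horns, against 44.6, 47.9 and 32.3 in oocyte horns. All embryo sums were above all oocyte sums, but without LTF they overlapped, running between 33.6 and 39.5 with embryos and between 28.8 and 36.2 with oocytes. ELANE, an elastase of neutrophil granules, had a fold change of -0.39 and the other 4 of the 5 genes were above 0 (50.8% of all probe sets were), with 0 of the 5 past the limma adjusted threshold in either fit. LTF, the iron-binding lactoferrin of neutrophil granules that glandular epithelia also secrete, had 13.0, 35.9 and 10.4 with embryos, against 8.4, 13.8 and 3.5 with oocytes (fold change 1.17). Of 6 mast cell genes 2 were named, and they differed in sign. The mast cell receptor chain MS4A2 had a fold change of 0.62 (SE 0.55) at signals between 4.6 and 14.3. The growth factor receptor KIT had a fold change of -0.16 (SE 0.59) at signals between 42.7 and 180.8.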

How the data were processed

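RNA from 6 scrapings was hybridised to Affymetrix porcine arrays. The deposited values were signal intensity per probe set, which the authors made with Microarray Suite (MAS5 version 5.1 in the submitters' processing notes), scaled linearly for each array. The Lowess step and the mixed model named in the methods were not part of the deposited values. Detection calls were not used here. Signals were floored at 0.1, log2 transformed, normalized by cyclic loess and fitted with limma 3.58.1 in R 4.3.3, with a variance trend. Two-sided p-values were adjusted (Benjamini-Hochberg) over 23999 probe sets, after leaving out 124 controls. Without the block, the p-values set the group difference against the spread between the 3 sows within a group. With the block, and in the sow F test, they use the spread that remains after the sow and the group are fitted. The limma fits of the group, without and with the block, were tested on simulated data.

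Symbols came from GEO's platform annotation: 10069 probe sets had 1 symbol, 198 several and 13732 none. All 31 gene IDs were found in the current RefSeq table.

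The replicate number was taken as the sow. Arrays of equal number deviated together from the mean of their group (correlations of 0.21, 0.17 and 0.10), and within-pair ratios given by the study's methods matched the signals of equal numbers.

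Values on every array are given for the 6 brightest markers of each group, for CD79B, for markers with an unadjusted p under 0.05 and for study-selected probe sets. Where others have such values, they were chosen after their values were seen. Members and lists were chosen with earlier results of these data known. Alternatives covered normalization, low signals, the filter, the variance trend, the block, probe set choice, the 5'/3' ratio and leaving out arrays. The sow F test, the counts by sow and of macrophage markers, and the sums without GPR183 or LTF were added after seeing the data.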

Additional observations from a re-analysis of the deposited data

How the results depend on the processing

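No marker passed an adjusted p of 0.05 in limma under any alternative run. No normalization turned the sign of any of the 31 markers, while averaging the probe sets of a gene turned 5, the 5'/3' ratio as a covariate 10, that ratio with the block 14, and leaving out 1 array 1 to 8. With the replicate block (the sow), probe sets with an unadjusted p under 0.05 numbered 2088 in place of 692, and markers 1 in place of 0. The block changed no call on an adjusted p. With 1 array of each horn per sow, it cannot change a fold change or its sign.

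Keeping only probe sets above the median signal left 10 of 31 markers and 232 probe sets with an unadjusted p under 0.05. Then 4 markers were higher and 0 lower in all 3 pairs, 4 macrophage and granulocyte markers were above 0 (all that were left), 4 markers were highest in sow 2, and the T and NK median was 0.20. Using signals as deposited, or arrays scaled to the same median, 1 marker in place of 2 was lower in all 3 pairs, since the sow 3 horns were level for CD247. Averaging probe sets gave a shared-marker median of -0.12.

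With the 5'/3' ratio as a covariate, 1253 probe sets had an unadjusted p under 0.05, the median of all markers was -0.14 and that of T and NK markers -0.33. In that fit, 8 macrophage and granulocyte markers were above 0. Replicate block and 5'/3' ratio together gave 1619 such probe sets, 1 past the adjusted threshold, 1 marker with an unadjusted p under 0.05, and medians of 0.26 for all markers, 0.11 for T and NK markers, 0.56 for CD79B, 0.59 for macrophage and granulocyte markers and 0.36 for shared markers. In that fit, which leaves 1 residual degree of freedom, the sign turned for 14 markers. Of these, CD3D (0.16), CD247 (0.10), PRF1 (-2.77), GNLY (0.12) and LAPTM5 (0.59) had fold changes larger than their SE in the fit without block or covariate, and the other 9, whose fold changes there were within their SE, took values between -0.46 (CD8A) and 1.10 (PTPRC). The cause was not tested.

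Leaving out 1 array gave medians of 0.018 to 0.37 for all markers, highest without the oocyte horn of sow 2, and of -0.26 to 0.32 for T and NK markers, below 0 without the oocyte horn of sow 1 (-0.26) or the embryo horn of sow 2 (-0.17). Markers with an unadjusted p under 0.05 numbered 0 to 2, with 1 lacking the embryo horn of sow 1 and 2 lacking the oocyte horn of sow 3. Macrophage and granulocyte markers above 0 numbered 6 to 9, lowest without the oocyte horn of sow 1. A group left with 2 arrays is assumed to vary like the other. With 3 sows and dim signals, small differences could not be detected.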
